A study of Mus musculus with 15 samples.

Results

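The mouse genes with symbols from Zfp900 to Zfp999 are zinc finger genes, many of them from recently duplicated clusters. They were chosen by symbol, with earlier results of these data known, and 46 of the 21662 genes counted in both experiments matched. RNA-seq of total RNA was compared between 15 samples of mouse embryonic stem cells (ESC), which are pluripotent cells of early embryos, in 6 groups. The KO experiment included 3 WT samples (a, b and c) from the parental, wild-type line. It had 2 samples (a and b) each of a line with an Hmga1 KO, made with Cas9 by a frameshift, and of KO cells that carry an inserted Hmga1 or Hmga2 cDNA (the Hmga1 and Hmga2 add-backs). The inserted cDNAs are tagged and driven by a strong ubiquitous promoter, and the parental line already expresses the biotin ligase BirA. The full-deletion experiment had 3 samples of WT and 3 of a line that lacks all of the Hmga1 coding sequence. Every genotype was 1 cell line, so that genotype and clone cannot be told apart. In the KO experiment the letters are batches of library preparation and sequencing, while the full-deletion experiment was sequenced together. Hmga1 and Hmga2 are small chromatin proteins that bind AT-rich DNA, and the comparisons ask how their loss or return alters transcription.

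Zinc finger proteins of this kind bind DNA through arrays of repeated fingers, each of which contacts a few bases. Many carry a KRAB domain, which recruits the corepressor Trim28 and with it the histone methyltransferase Setdb1. In ESC this machinery silences endogenous retroviruses and other transposable elements. The genes multiply by tandem duplication, so neighbouring copies can be nearly identical in sequence. Zfp979, also named 2610305D13Rik, lies in a duplicated array at the end of chromosome 4. Zfp932, a repressor of retroelements in ESC, has a close paralog, Gm15446, which was not analysed here.

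All 46 members were matched to the NCBIM37 annotation, the build of the counts (mm9). With members no more than 2 Mb apart placed together, 8 lay on chromosome 4 (chr4:145104787-147222475), namely Zfp980, Zfp992, Zfp987, Zfp982, Zfp985, Zfp979, Zfp984 and Zfp933. Another 8 lay on chromosome 17 (chr17:21704010-23004101), namely Zfp948, Zfp983, Zfp942, Zfp943, Zfp947, Zfp944, Zfp946 and Zfp945. Zfp966, Zfp967, Zfp970, Zfp971 and Zfp931 formed a group of 5 on chromosome 2 (chr2:175918013-177813181). Groups of 3 were Zfp976, Zfp975 and Zfp936 on chromosome 7 (chr7:49864896-50445851) and Zfp930, Zfp964 and Zfp963 on chromosome 8 (chr8:71750242-72273869). The other 19 members were in no group of 3 or more. A finger pattern (2 cysteines 2 residues apart, 12 residues, then 2 histidines, or a histidine and a cysteine, 3 or 4 apart) was found in 45 of the 46 proteins, with a median of 11 matches. Zfp974 had 21, the most, and Zfp957 had none.

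The promoters show how close the copies are. RefSeq (GRCm38.p6) gave a promoter for 42 of the 46 members, and the 250 bases before the start site were compared by global alignment, with the first listed start site of each gene. In the chromosome 2 group Zfp966 and Zfp967 were identical (100%), and the 10 pairs had a median identity of 87.1%. In the chromosome 4 group Zfp980 and Zfp979 shared 88.6% and Zfp987 and Zfp985 shared 83.4%, while Zfp982 and Zfp933 stood apart and the median over 21 pairs was 49.1%. In the chromosome 17 group the median over 28 pairs was 46.8%. Shown are 4 promoters of the chromosome 4 array and 2 of the chromosome 2 group, because they show how alike the copies are and because all 6 genes fell in the full deletion described further on. Capitals mark CCAAT on either strand (CCAAT or ATTGG), the CCAAT box of many promoters, which was picked after the sequences had been seen. The windows are chr4:147642509-147642758 on the minus strand, chr4:145670447-145670696, chr4:147553027-147553276 and chr4:146097062-146097311 on the plus strand, chr2:175931101-175931350 on the minus strand and chr2:178023034-178023283 on the plus strand.
Zfp979: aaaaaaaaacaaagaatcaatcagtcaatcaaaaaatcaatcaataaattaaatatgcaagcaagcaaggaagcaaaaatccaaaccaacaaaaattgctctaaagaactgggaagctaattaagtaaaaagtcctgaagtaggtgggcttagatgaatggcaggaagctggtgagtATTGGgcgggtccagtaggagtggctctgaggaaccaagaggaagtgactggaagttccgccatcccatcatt
Zfp980: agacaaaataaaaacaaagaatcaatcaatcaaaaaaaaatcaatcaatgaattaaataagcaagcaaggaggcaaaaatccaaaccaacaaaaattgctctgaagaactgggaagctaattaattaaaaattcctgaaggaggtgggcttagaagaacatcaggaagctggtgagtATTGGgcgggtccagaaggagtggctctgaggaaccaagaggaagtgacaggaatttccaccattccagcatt
Zfp985: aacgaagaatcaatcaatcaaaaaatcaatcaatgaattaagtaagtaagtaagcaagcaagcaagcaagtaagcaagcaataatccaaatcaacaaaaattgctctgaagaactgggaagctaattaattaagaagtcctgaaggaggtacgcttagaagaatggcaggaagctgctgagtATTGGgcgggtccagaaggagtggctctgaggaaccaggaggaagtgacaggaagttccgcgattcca
Zfp987: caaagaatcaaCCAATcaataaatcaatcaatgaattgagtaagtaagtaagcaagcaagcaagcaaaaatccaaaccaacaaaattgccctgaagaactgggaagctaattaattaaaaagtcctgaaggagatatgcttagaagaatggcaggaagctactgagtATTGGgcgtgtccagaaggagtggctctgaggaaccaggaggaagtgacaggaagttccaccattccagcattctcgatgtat
Zfp966: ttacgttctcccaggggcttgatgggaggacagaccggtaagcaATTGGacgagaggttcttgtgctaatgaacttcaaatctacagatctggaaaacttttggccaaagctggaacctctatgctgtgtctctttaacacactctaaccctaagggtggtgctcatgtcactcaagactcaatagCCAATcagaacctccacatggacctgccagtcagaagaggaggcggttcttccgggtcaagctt
Zfp971: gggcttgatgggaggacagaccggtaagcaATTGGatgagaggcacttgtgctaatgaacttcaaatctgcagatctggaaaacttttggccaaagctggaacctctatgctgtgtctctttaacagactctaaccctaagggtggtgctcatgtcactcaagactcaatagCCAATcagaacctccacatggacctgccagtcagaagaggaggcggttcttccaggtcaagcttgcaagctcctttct
The 4 chromosome 4 promoters hold ATTGG within the same stretch of letters, and the Zfp966 and Zfp971 promoters share both of their matches. CCAAT on either strand was present in 31 of the 42 member promoters (73.8%), in 102 of 240 promoters of other Zfp genes (42.5%) and in 34.5% of all 27025 RefSeq promoters of this length. It was in 6 of 7 promoters of the chromosome 4 group, in 5 of 5 of the chromosome 2 group, in 3 of 3 of the chromosome 7 group, in 2 of 2 of the chromosome 8 group and in 2 of 8 of the chromosome 17 group. Among members in no group it was in 13 of 17 (76.5%). Since the copies descend from each other, these promoters are not independent of one another.

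The near-identity reaches the transcripts and thereby the counts. Exons were cut into every overlapping word of 47 bases, the length of a trimmed read, and a median of 73.7% of a member's words occurred once in the genome, against 99.7% in 289 other Zfp genes with words. Fewer than 50% of the words were found once in 15 of the 46 members and in 7 of those 289 genes. Zfp966 and Zfp967 had no word found once (0.0%), and Zfp967 shared 100% of its words with Gm4723. Zfp987 had 7.9% and Zfp980 had 13.9%. Zfp960 had 14.7% and shared 83.3% of its words with Zfp97, and Zfp932 had 39.7% and shared 37.8% with Gm15446. A read with several equal matches was assigned to 1 of them at random, so counts of such genes are partly those of their copies. Within the annotated exons, the values of Zfp966, Zfp967, Zfp980, Zfp987, Zfp960 and Zfp932 belong to the copies as much as to the gene. Members were also AT-rich in their exons, with a median of 61.5% against 52.8% in other Zfp genes and 50.8% in all genes matched. The exons behind the words and the AT content are those of the annotation and can differ from the ones counted. Zfp966 had 2988 annotated exon bases against 10930 counted, Zfp936 had 1368 against 3112 and Zfp951 had 1785 against 4699. For these 3 much of the counted sequence was not examined.

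Samples were checked once as a whole. Counts on genes ranged from 13465399 to 34952136 in the KO experiment and from 14832310 to 21708492 in the full-deletion experiment. In the KO experiment batch a held the deep libraries, with 30742898 counts or more, and batch b the shallow ones, with 14585417 or fewer. WT b of the full-deletion experiment stood apart, with a TMM factor of 0.752 against 0.986 to 1.12 in the other 5 samples. Levels are CPM, counts scaled to a common TMM-normalised library size. Hmga1 was at 310 to 357 CPM in WT and at 10.9 to 12.3 after the full deletion, and at 221 to 464 in WT of the KO experiment. In KO it was at 217 CPM in a and 96.1 CPM in b, below WT of the same batch (464 and 276 CPM). In the Hmga1 add-back it was at 184 CPM in a and 123 CPM in b. The library labelled Hmga1 add-back a thus had a lower Hmga1 CPM than KO a, and it is called by its label only. Counts of the whole gene include RNA of the mutated locus, from which the paper reports that a shortened transcript is still made. They therefore cannot show how much Hmga1 was restored. In the paper's Western blot, Hmga1 protein of the add-back was back at a level similar to WT. Hmga2 was at 249 and 222 CPM in the Hmga2 add-back and at no more than 23.8 CPM in the other samples of that experiment. All 7 pluripotency markers were detected and summed to between 3871 and 7375 CPM in every sample, whereas 6 feeder fibroblast markers reached at most 13.2 CPM and 7 differentiation markers at most 78.7 CPM, highest in WT of the KO experiment.

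Every member had counts in all 15 samples of these ESC, and their levels spread widely. Per kilobase of the exon length in the files, Zfp979 was highest, with a mean of 104 CPM per kb over all samples, followed by Zfp980 (81.3), Zfp985 (69.1), Zfp987 (64.6), Zfp936 (56.0) and Zfp961 (48.6). Of these 6, 4 belong to the chromosome 4 array. In WT of the KO experiment Zfp979 had 121 ± 18.7, Zfp985 104 ± 28.7 and Zfp980 103 ± 29.2 CPM per kb (SD, n = 3), so the order of the leading genes is within their spread. In WT of the full-deletion experiment Zfp979 had 146 ± 30.1 and Zfp980 86.1 ± 10.1 CPM per kb (SD, n = 3). The members between Zfp982 (35.0) and Zfp983 (0.792) spanned most of the list, and Zfp964 followed with 0.720 CPM per kb. Zfp957 was last at 0.0829 CPM per kb and had between 1 and 14 counts per sample, below the mean of 10 counts required for testing, so 45 members were tested. The 6 members with the most counts held 53.8% of all member CPM.

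The summed CPM of the 46 members was lower in batch a than in batch b in every genotype, and lower in the full deletion than in its WT. In batch a the sums for WT, KO, Hmga1 add-back and Hmga2 add-back were 2294, 1717, 1509 and 1617. In batch b it was 3613, 3373, 3629 and 3194 in the same order, and WT c had 3334. All 4 samples of batch a thus lay below all 4 of batch b. In the full-deletion experiment WT a, b and c had 2134, 2619 and 2179 CPM, and the full-deletion samples had 1477, 1501 and 1393. These 2 groups did not overlap. The 295 other Zfp genes went the same way. Their sums were 12397 to 14143 CPM in batch a and 15386 to 16130 CPM in batch b. In the full-deletion experiment they were 13063 to 17934 CPM in WT and 11143 to 11144 CPM in the deletion, again without overlap.

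**Figure D1:**
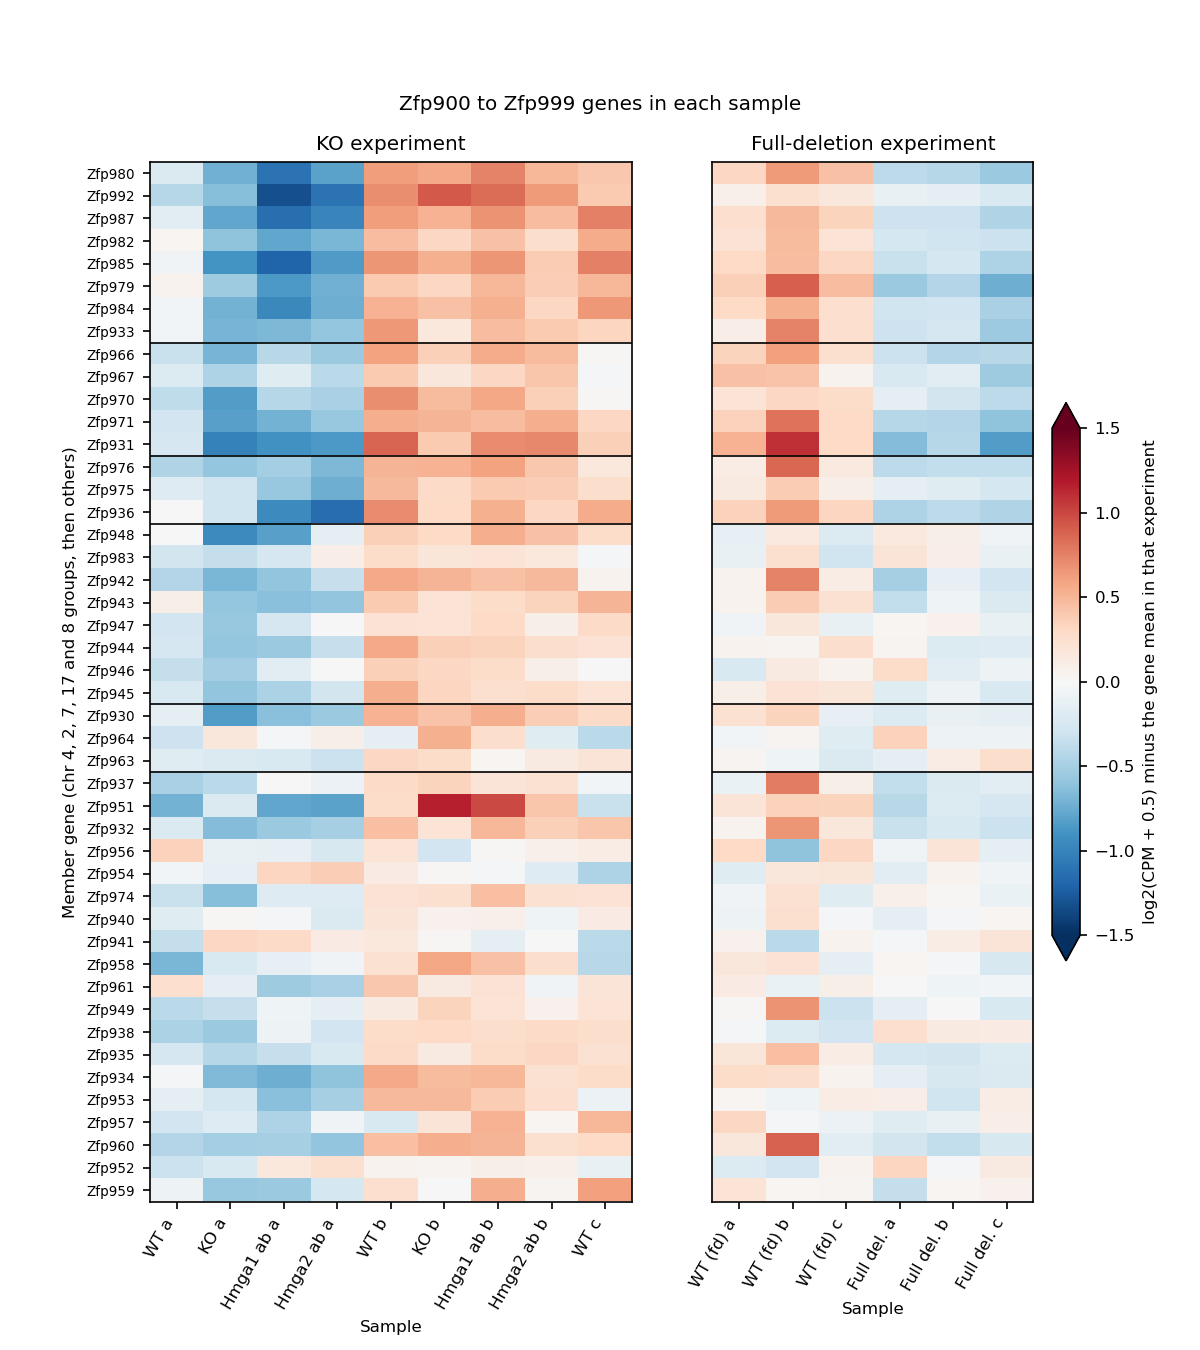
Heat map of log2(CPM + 0.5) of all 46 members (rows, by chromosome group with lines between groups) in the 9 samples of the KO experiment, ordered by batch, and the 6 samples of the full-deletion experiment, each minus the gene's mean in that experiment; colours are cut at 1.5 in either direction. Batch a is mostly blue and batch b mostly red, and the chromosome 4, 2 and 7 groups are red in WT and blue in the full deletion.

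The full deletion showed the clearest differences between genotypes, and they were mostly decreases. By median log2 fold change the chromosome 2, 7 and 4 groups were lowest (-0.81, -0.81 and -0.72). The comparison used edgeR's quasi-likelihood test on 13098 genes with Benjamini-Hochberg adjustment over all of them. By the study's threshold (a fold change of 2 or more with an adjusted p below 0.01) 0 of 45 members were called, against 0.0687% of all genes, while the Wald test of DESeq2 called 3 (Zfp931, Zfp971 and Zfp979, all lower), against 3.53% of all genes by that test, and limma-trend called 0. At an adjusted p under 0.05 edgeR had 12 members lower (26.7%) and 0 higher, against 3.77% of all genes lower and 4.47% higher. At an unadjusted p under 0.05, 25 were lower (55.6%) and 1 was higher, against 18.6% and 18.4% of all genes. The median log2 fold change was -0.41 for the members, -0.17 for 275 other Zfp genes and 0.04 for all genes. In 26 members (57.8%) all 3 full-deletion samples lay below all 3 WT samples, against 24.6% of all genes.

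In the chromosome 4 array all 8 members had lower estimates and 6 fell at an adjusted p under 0.05. Zfp979 had 317, 461 and 342 CPM in the WT samples and 169, 183 and 149 CPM in the full-deletion samples. The groups did not overlap, and the log2 fold change was -1.16 ± 0.17 (SE, edgeR adjusted p = 0.0216). Zfp980, with 307, 387 and 337 CPM in WT and 188, 184 and 169 CPM in the deletion, fell by 0.93 on the log2 scale (SE 0.12, edgeR adjusted p = 0.0188). Zfp985, Zfp987 and Zfp984 fell alike, by 0.71, 0.72 and 0.72 on the log2 scale, and Zfp982 fell by 0.60, with edgeR adjusted p between 0.0216 and 0.0302. Zfp933 and Zfp992 missed that threshold with log2 fold changes of -0.78 and -0.33. Zfp933 is unlike its neighbours in that 94.7% of its words occur once in the genome, so its counts are mostly its own.

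In the chromosome 2 group 4 of 5 members fell. Zfp931 had the largest change of all members, from 7.83, 11.9 and 6.65 CPM in WT to 3.21, 3.84 and 2.77 CPM in the deletion. The groups did not overlap, and its log2 fold change was -1.42 ± 0.26 (SE, edgeR adjusted p = 0.0309). Zfp971, with 28.0, 38.8 and 27.0 CPM in WT and 16.2, 16.0 and 14.3 CPM in the deletion, fell by 1.01 on the log2 scale (SE 0.16, edgeR adjusted p = 0.0250). Zfp966 fell by 0.81 and Zfp970 by 0.55 on the log2 scale, with edgeR adjusted p of 0.0250 and 0.0423. Zfp967 had a log2 fold change of -0.67 (edgeR adjusted p = 0.0591).

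Outside these arrays 2 members fell. Zfp936 on chromosome 7 (chr7:50442540-50445851) had 174, 213 and 172 CPM in WT and 98.9, 104 and 99.6 CPM in the deletion, a log2 fold change of -0.89 ± 0.12 (SE, edgeR adjusted p = 0.0188). Its neighbours Zfp976 and Zfp975 were also below WT in every sample, with log2 fold changes of -0.81 and -0.41 and edgeR adjusted p of 0.0525 and 0.0642. Zfp951 on chromosome 5 (chr5:105242366-105246371) fell by 0.59 on the log2 scale (SE 0.11, edgeR adjusted p = 0.0319). Zfp932 (chr5:110425540-110439430) had 35.0, 53.7 and 38.1 CPM in WT and 26.7, 28.9 and 26.9 CPM in the deletion, without overlap, with a log2 fold change of -0.62 ± 0.17 (SE, edgeR adjusted p = 0.0581). In the chromosome 17 group 0 of 8 passed and the estimates ran from -0.64 for Zfp942 to 0.12 for Zfp948. The chromosome 8 group had a median of 0.18. Zfp938 was the only member above WT in all samples, with a log2 fold change of 0.35 (edgeR adjusted p = 0.105), and Zfp961, among the most abundant members, had -0.08 ± 0.10 (SE).

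The count of 12 rested on several libraries. Without WT c, or without any single one of the full-deletion samples a, b and c, 0 members passed an adjusted p of 0.05, and no more than 4 of all genes did. At an unadjusted p under 0.05, 20 to 25 members were still lower, against 1419 to 2495 of all genes tested. Without WT b, the library that stood apart, 25 members passed (24 of them lower), against 42.5% of all genes in either direction (2894 of 13163 genes lower). By the study's threshold 1 was then called (Zfp931), a share near the 2.75% of all genes. With summed counts in place of TMM, 5 members passed, but that scaling moved the median of all genes by 0.28 to 0.32, and the members' median of -0.11 was then lower than it by a similar margin. The 12 log2 fold changes then ran from -1.10 for Zfp931 to -0.26 for Zfp970. The direction was the same under every scaling, test, filter and omitted sample tried for all 12 members.

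**Figure D2:**
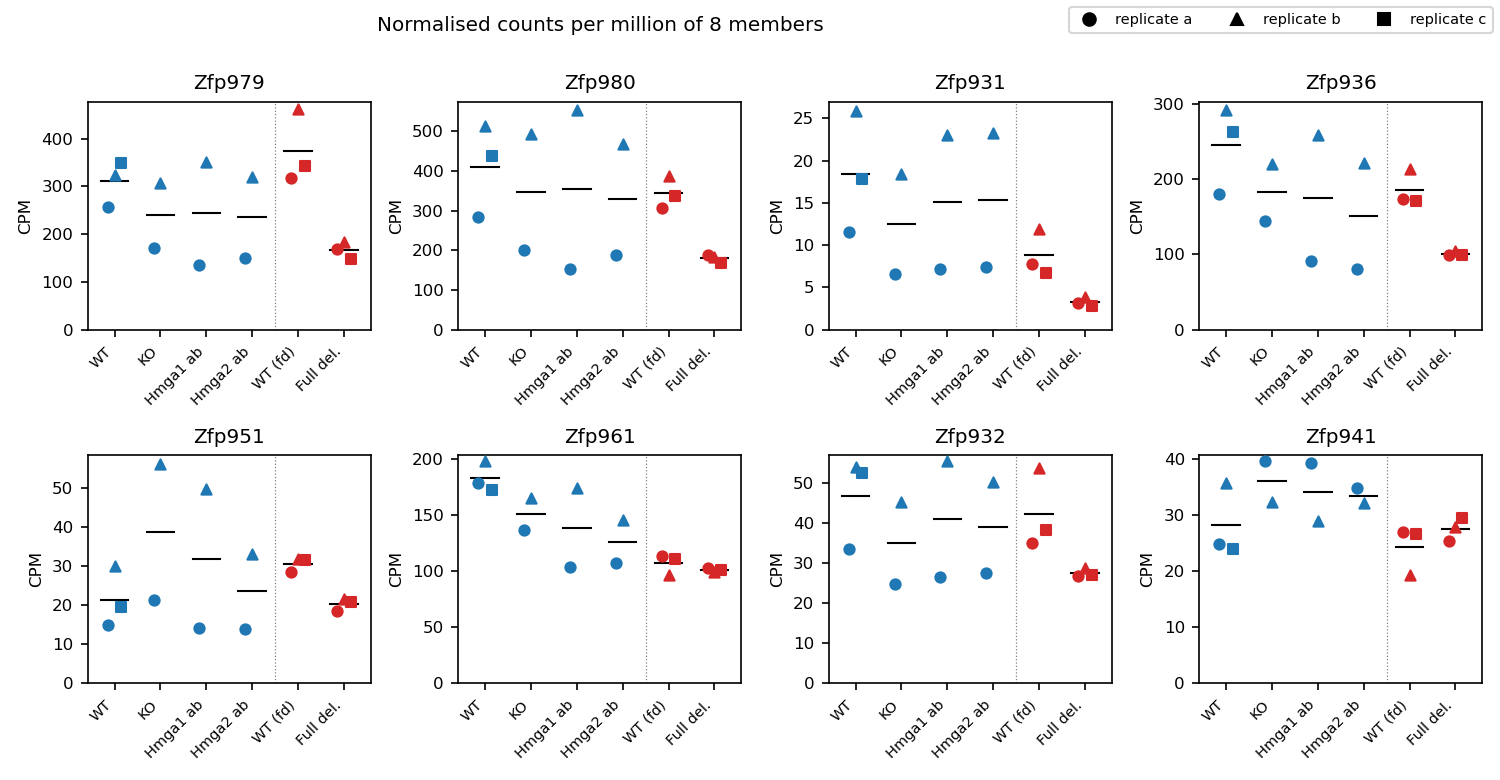
Levels in CPM (vertical axes from 0) of 8 members in each sample, with circles, triangles and squares for replicates a, b and c and bars for group means; blue is the KO experiment and red the full-deletion experiment. Zfp979, Zfp980, Zfp931 and Zfp936 are lower in all full-deletion samples than in WT. In the KO experiment batch b lies above batch a, except for Zfp941 and Zfp961, whose batches overlap.

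In the KO line no member passed a test. Of 13912 genes 0.0216% were called and 0 of 45 members, and at an adjusted p under 0.05 edgeR, DESeq2 and limma-trend each gave 0 members. At an unadjusted p under 0.05, 10 members were lower and 2 higher, against 5.56% of all genes lower and 6.99% higher. The median log2 fold change was -0.26, compared with -0.15 in 279 other Zfp genes and -0.01 in all genes, and 36 of 45 estimates were below 0. All 8 members of the chromosome 4 array were among them (median -0.39), as were all 5 of the chromosome 2 group (median -0.31) and all 8 of the chromosome 17 group (median -0.22). The 3 smallest p belonged to Zfp951, Zfp933 and Zfp931. Zfp933 had 16.3, 26.8 and 21.1 CPM in the WT samples and 10.2 and 18.8 CPM in KO a and b, lower within each batch but overlapping between them, with a log2 fold change of -0.60 ± 0.16 (SE, edgeR adjusted p = 0.212). Zfp931 had 11.5, 25.8 and 17.9 CPM in WT and 6.62 and 18.4 CPM in KO, a log2 fold change of -0.65 ± 0.18 (SE, edgeR adjusted p = 0.219). For Zfp932 it was -0.35 ± 0.13 (SE, edgeR adjusted p = 0.346).

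Within batch a the members' median log2 ratio of KO to WT was -0.31 and 8 of 45 were higher in KO. Within batch b it was -0.09 and 11 of 45 were higher. The summed member CPM of KO was 0.748 times that of WT in batch a and 0.933 times in batch b. The counts depended on single libraries. Without WT b 5 members passed an adjusted p of 0.05 (Zfp931, Zfp982, Zfp984, Zfp985 and Zfp987, all lower), against 2.41% of all genes lower. At an unadjusted p under 0.05, 18 were then lower, against 11.8% of all genes. That last count was 1 without WT a, against 2.49% of all genes. It was also smaller than with all samples when a KO or an Hmga2 add-back sample was left out, as was the count over all genes. Those fits leave 1 sample in a group.

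In the add-backs no member passed the test, neither against WT nor against KO. Against WT, 0 of 45 members were called for the Hmga1 add-back (0.0144% of all genes) and 0 for Hmga2 (0.0647%). In the Hmga1 add-back edgeR gave 7 members lower and 1 higher at an unadjusted p under 0.05, against 5.35% and 7.91% of all genes. In the Hmga2 add-back it gave 8 lower and 0 higher, against 7.46% and 9.45%. At an adjusted p under 0.05 edgeR and limma-trend gave 0 members for both, while DESeq2 gave 0 and 2, against 1.44% and 2.36% of all genes. Without WT b, edgeR gave 5 and 8, all lower, against 2.53% and 4.21% of all genes lower. The lowest p in both belonged to Zfp961 on chromosome 8 (chr8:74474937-74517307), which had 179, 198 and 172 CPM in WT, 103 CPM in the library labelled Hmga1 add-back a, 174 CPM in Hmga1 add-back b and 107 and 145 CPM in the Hmga2 add-back. Its log2 fold changes were -0.49 ± 0.15 (SE, edgeR adjusted p = 0.260) and -0.60 ± 0.15 (SE, edgeR adjusted p = 0.139). Next in the Hmga1 add-back were Zfp933 (-0.43, edgeR adjusted p = 0.335) and Zfp985 (-0.58, edgeR adjusted p = 0.342). Next in the Hmga2 add-back were Zfp936 (-0.78, edgeR adjusted p = 0.180) and Zfp982 (-0.47, edgeR adjusted p = 0.235).

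Against the KO line, and with the library labelled Hmga1 add-back a included, the add-backs gave 0 calls among 45 members, against 0% of all genes for Hmga1 and 0.00719% for Hmga2. With Hmga1, 0 members were lower and 0 higher at an unadjusted p under 0.05, where 1.54% and 1.27% of all genes were. With Hmga2, 1 was lower and 0 higher, against 2.47% and 2.62%. The median differences were 0.02 and 0.08 on the log2 scale. With Hmga1 the smallest p belonged to Zfp966 (0.24), Zfp951 (-0.37) and Zfp970 (0.26), all with an edgeR adjusted p of 0.9999. With Hmga2 they belonged to Zfp951 (-0.69 ± 0.19, SE), Zfp948 (0.50 ± 0.26, SE) and Zfp936 (-0.42 ± 0.23, SE), all with an edgeR adjusted p of 0.877.

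The effects of the full deletion and of the frameshift KO were compared in a joint fit of all 15 samples. In it 0 of 45 members were called (0.0951% of all genes) and 1 was lower at an adjusted p under 0.05 (0.293% of all genes). DESeq2 called 1, against 0.797% of all genes, and limma-trend 0. At an unadjusted p under 0.05 edgeR had 8 members lower and 0 higher, against 9.85% and 8.52% of all genes. The member that passed was Zfp951. It had 14.9, 30.1 and 19.5 CPM in the WT samples and 21.3 and 56.3 CPM in KO a and b, higher in KO within each batch. In the other experiment it had 28.6, 31.9 and 31.6 CPM in WT and 18.6, 21.6 and 20.9 CPM in the deletion, lower in every sample. The KO effect was 0.70 ± 0.19 on the log2 scale (SE, edgeR adjusted p = 0.211), and the effects differed by -1.31 ± 0.23 (SE, edgeR adjusted p = 0.0352). In batch a the Hmga1 and Hmga2 add-backs had 14.2 and 14.0 CPM, both close to WT. In batch b they had 49.7 and 33.1 CPM, from 1 library each. The Hmga1 add-back against WT had a log2 fold change of 0.33 (edgeR adjusted p = 0.468). The adjusted p of the difference missed 0.05 without WT a or b, KO a or b, Hmga2 add-back a or b, WT c of the full-deletion experiment or any full-deletion sample, with summed counts and without the batch term, at differences between -1.56 and -1.02. Zfp971 and Zfp966 had the next smallest p, with differences of -0.73 and -0.52 (edgeR adjusted p = 0.223 and 0.235). The members' median difference was -0.21, and it turned to 0.09 with summed counts, which moved the median of all genes by 0.28.

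The largest differences among the members lay between batches of the KO experiment. Batch b against batch a, as a term of the same model, called 14 of 45 members against 2.34% of all genes, and all 14 were higher in b. At an adjusted p under 0.05, 37 members were higher (18.6% of all genes) and 0 lower, and 39 were higher at an unadjusted p under 0.05. The median log2 fold change was 0.83 for the members, 0.19 for 279 other Zfp genes and -0.03 for all genes. The 14 were Zfp992, Zfp987, Zfp980, Zfp985 and Zfp984 on chromosome 4, Zfp931, Zfp971, Zfp970 and Zfp966 on chromosome 2, Zfp976 and Zfp936 on chromosome 7, Zfp942 on chromosome 17, Zfp930 on chromosome 8 and Zfp951 on chromosome 5. The largest change was in Zfp992, from 51.4, 44.2, 27.4 and 31.8 CPM in batch a (WT, KO, Hmga1 and Hmga2 add-back) to 113, 132, 124 and 108 CPM in batch b. All samples of b were above all of a, with a log2 fold change of 1.66 ± 0.15 (SE, edgeR adjusted p = 0.000691).

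Zfp931 followed with 1.49 ± 0.13 (SE, edgeR adjusted p = 0.000676) and Zfp951 with 1.37 ± 0.13 (SE, edgeR adjusted p = 0.000888). Zfp976 had the smallest p, with 34.8, 31.8, 33.4 and 29.8 CPM in batch a and 68.0, 68.6, 72.5 and 63.3 CPM in batch b, a log2 fold change of 1.07 ± 0.08 (SE, edgeR adjusted p = 0.000465). Zfp966 and Zfp971 had 1.01 ± 0.08 and 1.12 ± 0.10 (SE). Zfp979 had 0.91, Zfp960 0.96 and Zfp932 0.87 on the log2 scale, all at an edgeR adjusted p of 0.00374 or less. The median was 1.19 in the chromosome 4 array, 1.08 in the chromosome 2 group, 1.06 in the chromosome 7 group and 0.75 in the chromosome 17 group. The 8 members that missed an adjusted p of 0.05 were Zfp947, Zfp983, Zfp940, Zfp954, Zfp952, Zfp964, Zfp941 and Zfp956, most of them in no group. Within single genotypes the b to a ratio of the summed member CPM was 1.57 for WT, 1.96 for KO, and 2.41 and 1.97 with Hmga1 and Hmga2 added back. WT c lay between, with 40 of 45 members above WT a and 36 of 45 below WT b.

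The 14 calls fell to 0 without KO a or without KO b, when calls over all genes also fell, from 326 to 15 and 22. In both settings 30 members still passed an adjusted p of 0.05, all higher in b, against 10.8% and 11.1% of all genes. With summed counts, which moved the median of all genes by -0.13, 6 members were called, against 2.96% of all genes. Without WT a or WT b 19 were called, against 4.69% and 4.71% of all genes. Library preparation day, flow cell and depth move together with these letters and cannot be told apart. The samples also came from independent cultures harvested on different days, so differences between cultures cannot be told apart from these either.

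**Figure D3:**
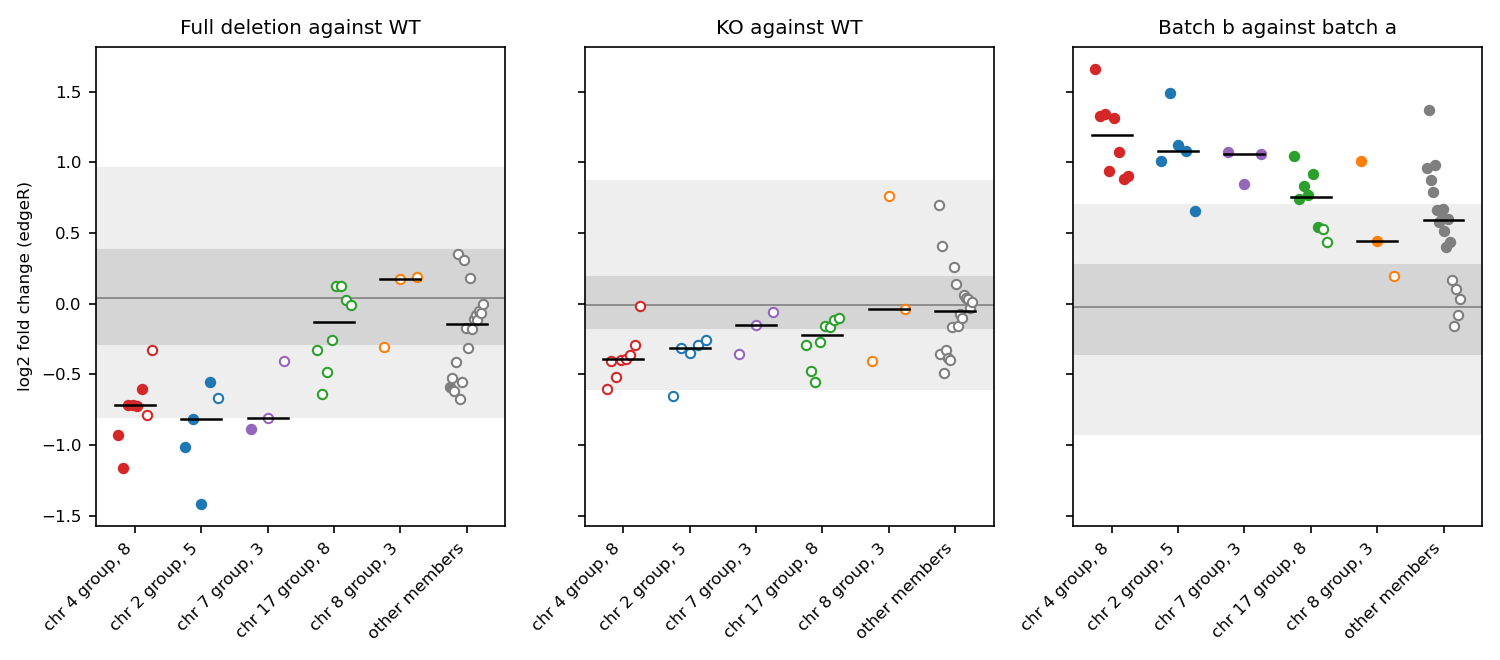
Log2 fold changes of the 45 tested members by chromosome group in 3 comparisons, with filled points at an edgeR adjusted p under 0.05, black bars at group medians, and the dark and light bands at the middle 50% and 90% of all genes tested (grey line, their median). The chromosome 4, 2 and 7 groups lie lowest in the full deletion, at medians of -0.72, -0.81 and -0.81, and highest in the batch comparison.

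The batch and full-deletion contrasts share no sample. Of all 45 tested members 82.2% had an estimate below 0 in the full deletion, against 46.6% of all genes. Of the 37 members that were higher in batch b at an adjusted p under 0.05, 33 were below 0 there, near the share of all members. The 4 exceptions were Zfp938 (0.65 in batch b and 0.35 in the deletion, on the log2 scale), Zfp948 (0.91 and 0.12), Zfp963 (0.44 and 0.18) and Zfp946 (0.54 and 0.03). Across 45 members the log2 fold changes had a Pearson r of -0.69 and a Spearman rho of -0.74. Across 275 other Zfp genes they were -0.52 and -0.48, and across 13050 genes -0.48 and -0.48. Genes are not independent replicates, copies share reads, and the points share base composition. Zfp931, the most decreased member in the deletion, was second in batch b, while Zfp992, first in batch b, had a log2 fold change of -0.33 in the deletion. Zfp979 had -1.16 and 0.91.

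**Figure D4:**
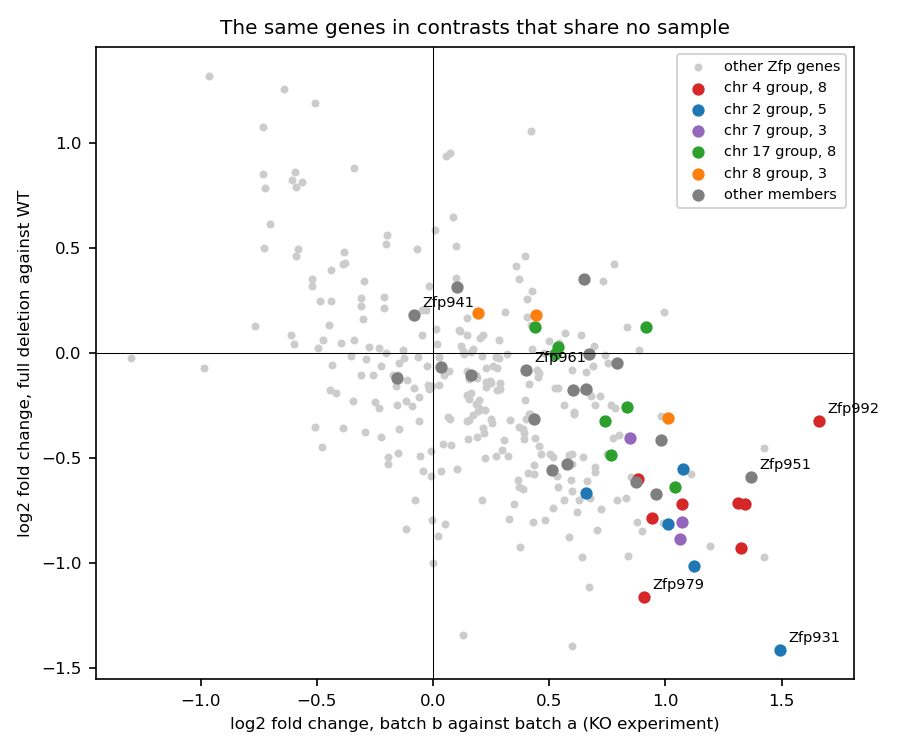
Log2 fold change of each member (coloured by chromosome group) and of 275 other Zfp genes (grey) in batch b against batch a (horizontal axis) and in full deletion against WT (vertical axis). Most members lie in the lower right, with Zfp931 at 1.49 and -1.42, and Zfp941 lies near 0.

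AT content of the exons moved with both contrasts. Over 13511 genes it had a Spearman rho of 0.59 with the batch effect and over 12749 genes a rho of -0.35 with the full-deletion effect, and over 45 members the values were 0.60 and -0.46. The 30 tested members with at least 60% AT had a median of -0.57 in the full deletion, and the 15 others had -0.08, while 542 other genes with at least 60% AT had -0.29. In the batch comparison these medians were 0.89, 0.44 and, over 573 other genes, 0.47. Shared sequence moved along as well. The 15 members with under 50% of their words found once had a median of -0.67 in the full deletion, and the 17 with at least 90% had -0.08, with a rho of 0.68 over 45 members. Zfp933, with 94.7%, and Zfp942, with 89.3%, had -0.78 and -0.64 all the same. The part of AT content, shared reads and library preparation in the full-deletion decreases was not tested. In bulk RNA, fewer cells that express a gene and less RNA per cell cannot be told apart.

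**Figure D5:**
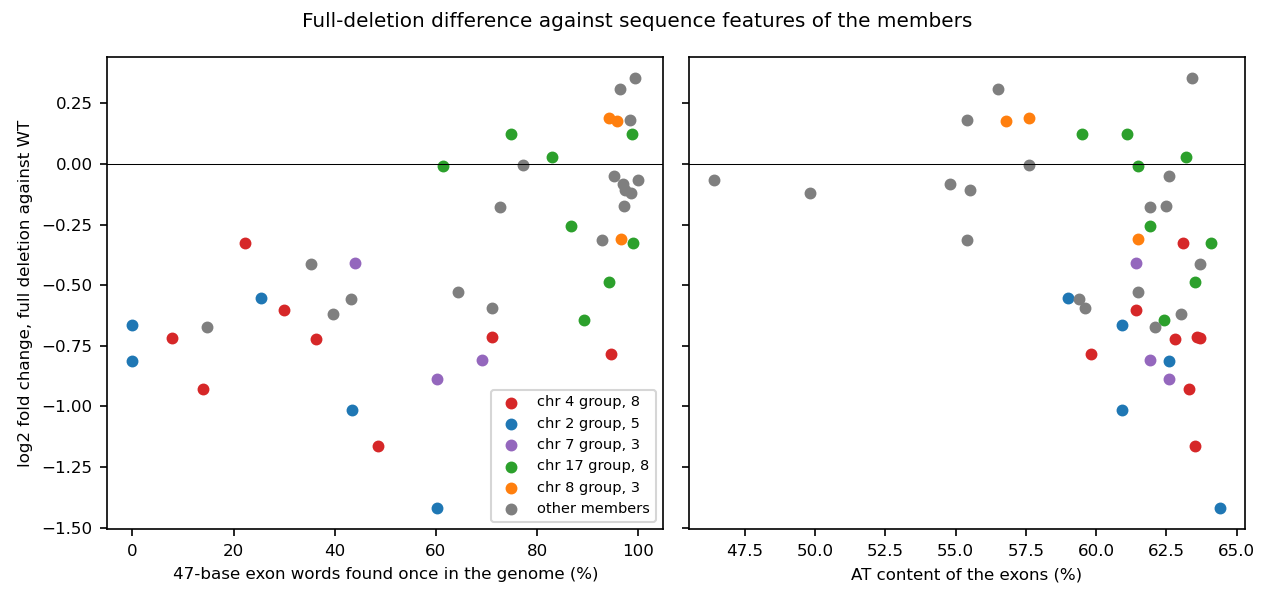
Log2 fold change of the 45 tested members in full deletion against WT (vertical axis) against the share of 47-base exon words found once in the genome (left, %) and the AT content of the exons (right, %), coloured by chromosome group. Members with under 50% of words found once all lie below 0, with a median of -0.67, and those with at least 90% scatter around a median of -0.08.

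Over all 15 samples Zfp931 varied most, with an SD of 0.99 on the log2(CPM + 0.5) scale, followed by Zfp952 (0.76), Zfp970 (0.75), Zfp966 (0.74), Zfp930 (0.72) and Zfp985 (0.71). Zfp952 differed from the others in that its spread lay between the experiments. It had 13.1 to 19.5 CPM in the 9 samples of the KO experiment and 4.60 to 7.26 CPM in the 6 of the full-deletion experiment, which were scaled separately, and its batch and full-deletion changes did not pass. The least variable tested member was Zfp941, with an SD of 0.28 and 19.4 to 39.7 CPM in all samples.

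The corepressor machinery on which KRAB zinc finger proteins depend was represented by a list of 20 genes, of which 19 were counted and tested. In KO and in both add-backs, against WT or against KO, 0 passed an edgeR adjusted p of 0.05. In the full deletion 3 of the 19 fell and 0 rose at that threshold, against 3.77% and 4.47% of all genes. The median log2 fold change of the list was -0.34. Trim28, the scaffold that KRAB domains bind, was at 2838 ± 284 CPM in WT and 1870 ± 75.4 CPM in the deletion (SD, n = 3), with a log2 fold change of -0.60 (edgeR adjusted p = 0.0468). Zfp57, which protects imprinted methylation, fell by 0.44 on the log2 scale (edgeR adjusted p = 0.0444). The last of the 3 was 2810474O19Rik, with -0.54 (edgeR adjusted p = 0.0496). All 3 values lay close to the threshold. Without WT c, or without any single full-deletion sample, no more than 4 of all genes passed it. Setdb1 had -0.25 (edgeR adjusted p = 0.109) and Zfp809, which recognises a retroviral primer binding site, had -1.34 (edgeR adjusted p = 0.0640). Zfp809 was at 111 ± 70.3 CPM in WT, a wide spread, and at 43.5 ± 1.71 CPM in the deletion (SD, n = 3). Between batches 11 of the 19 were higher in b and 1 (Hdac1, a histone deacetylase) was lower, against 18.6% and 17.1% of all genes. The median was 0.32. The summed level of the list was 8461 to 11901 CPM in WT and 6511 to 6619 CPM in the deletion, without overlap. This was not particular to the list. The 7 pluripotency markers summed to 4256 to 7375 CPM in WT and 3871 to 4003 CPM in the deletion. The other Zfp genes did not overlap either. The WT samples differed widely in some listed genes, such as Chd4 with 1834 ± 647 CPM (SD, n = 3).

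Genes of 2-cell-like cells, a rare state in ESC cultures that expresses many repeats, summed to 1.95 to 5.51 CPM in WT, 27.5 to 72.4 CPM in KO, and to 32.8 to 38.7 CPM and 12.6 to 19.4 CPM with Hmga1 and Hmga2 added back. In the full-deletion experiment the 6 listed genes counted summed to 12.7 to 14.0 CPM in WT and 6.29 to 8.27 CPM in the deletion. None of the 6 was at 0 in all samples. Of 5 tested, 0 passed an edgeR adjusted p of 0.05 in KO. In the full deletion 1 fell, against 3.77% of all genes. In the difference between the full-deletion and KO effects 4 were lower, against 0.293% of all genes. The part of these 2-cell-like genes in the members' values was not tested.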

How the data were processed

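RNA-seq libraries of rRNA-depleted total RNA (strand-specific, independent cultures harvested on different days) were made from 15 samples in 6 groups. The deposited values are raw counts per gene. Per the study's methods the authors trimmed the first 3 bases of 50-base reads, aligned them to mm9 with QuasR and bowtie, placed a multi-mapping read at 1 random alignment and counted reads on the strand of the UCSC known gene exons. The submitters' processing notes also name bcl2fastq 2.17. Files held no sample of another series.

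TMM normalisation and quasi-likelihood tests were run in edgeR 4.0.16 (R 4.3.3) on genes that averaged 10 counts or more, and p-values were adjusted by the Benjamini-Hochberg method over the whole table. The KO experiment was fitted on all 9 samples with batch as a term, as in the study's methods. WT c is alone in its batch and adds nothing to the contrasts. The letters pair samples there, since the difference b minus a had a correlation of 0.36 to 0.81 across genes between genotypes. Replicates differed beyond counting noise, with chi-square values of 3.88 or more per degree of freedom, and p-values measure the spread between cultures of 1 line each. The full-deletion experiment was fitted on 6 samples without batch. The test was checked on simulated data without a batch effect. The planted genotype changes were larger than those of the members, so the check does not show the power for theirs.

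Positions, exon AT content and words came from the NCBIM37 annotation (gencode vM1), and promoters from RefSeq. Members and the lists of corepressors, pluripotency, feeder, differentiation and 2-cell-like genes were chosen with earlier results of these data known. Members named with values were those at an adjusted p under 0.05 in any comparison (the 30 with the smallest p), the 3 smallest p per comparison, the 6 highest per kilobase, the 6 most variable, and Zfp932. A pseudocount of 0.5 CPM was used for log2 SDs and ratios. Other settings were size factors of DESeq2, summed counts, no filter or a mean count of 50, DESeq2 1.42.0, limma-trend (limma 3.58.1, prior count 2), the batch term switched, only the groups compared, an adjusted p under 0.05 without a minimum fold change, and leaving out each sample. Plots used matplotlib 3.10.9.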

Additional observations from a re-analysis of the deposited data

Results flagged for a closer look

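Zfp951 differed between the 2 deletions of Hmga1. The full-deletion effect minus the KO effect was -1.31 on the log2 scale (SE 0.23, edgeR adjusted p = 0.0352), as tested by the interaction term of the joint fit. It was 0.70 in KO against WT, higher in 2 of 2 batches, and -0.59 in the full deletion, lower in 3 of 3 samples. The edgeR, limma and DESeq2 adjusted p ranged from 5.94e-05 to 0.489 over the alternatives, and the estimate kept its sign in each. Without the replicate block, that is without the batch term, the adjusted p was 0.489 at a difference of -1.46.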

How the results depend on the processing

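Among members called by the study's threshold, the 0 of the full deletion became 3 with DESeq2 and 12 at an adjusted p under 0.05 without a minimum fold change, and ranged from 0 to 1 when each sample was left out. The 12 at an adjusted p under 0.05 became 22 with DESeq2, against 24.7% of all genes in either direction. With summed counts they became 5, against 5.07% of all genes. They ranged from 0 to 25 when each sample was left out, against 0.0228% to 42.5% of all genes. The 14 of batch b against batch a became 6 with summed counts and 37 at an adjusted p under 0.05, and ranged from 0 to 19 when each sample was left out. The 0 of the difference between the full-deletion and KO effects became 1 with DESeq2 and 1 at an adjusted p under 0.05. Calls over all genes moved too, in the full deletion to 3.53% with DESeq2 and 2.75% without WT b, and between batches to 0.108% and 0.157% without KO a and KO b. The cause of these moves was not tested, except that summed counts shifted the median of all genes and omitted samples left fewer degrees of freedom. The other counts of called members moved under no alternative, and no log2 fold change of a named member changed sign. Of these log2 fold changes 948 kept their side of an adjusted p of 0.05, 104 lost it and 13 gained it.

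With letters a, b and c as a replicate block in the full deletion, 9 members passed an adjusted p of 0.05 and 0 were called. Of all genes 3.02% passed and 0.0305% were called. The letters share only a number there: same-letter deviations had correlations of 0.08, 0.09 and -0.06 across genes. Without the batch block in KO against WT, 0 members were lower at an unadjusted p under 0.05. The depth of Zfp964 (16 to 59 counts) and Zfp957 limits what they can show, and for genes with few words found once the counts cannot be assigned to 1 copy.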
